A study of Mus musculus with 6 samples.

Results

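The regions described here were the 477 strongest of the open chromatin regions that lay away from the ends of protein-coding genes and were called in every peak list of an ATAC-seq study of mouse hematopoietic stem cells. ATAC-seq uses the Tn5 transposase to cut and tag DNA that is not wrapped up in chromatin, so that stretches with many cuts stand out as peaks. Peaks of the 6 lists that shared at least 1 bp were merged, which gave 84592 regions on chromosomes 1 to 19 and X, and 19683 of these held a peak in all 6 lists. Of those, 7616 lay over 1 kb and at most 50 kb from the nearest end of a protein-coding gene. A region was kept when the authors' fold value of its highest peak had a mean percentile of at least 90 over the 6 lists, each percentile taken within 1 list. The 477 regions kept were 6.26% of the 7616, and the 7139 others are called the other distal regions.

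There were 3 libraries labelled Dek_cKO and 3 labelled Dek_fl, all from C57BL/6 mice aged 3 months. Both groups had loxP sites in both copies of Dek, which encodes a chromatin-bound nuclear protein. Animals of the Dek_cKO group also carried Tie2-Cre, in which control DNA of the Tek gene drives Cre recombinase in blood and endothelial cells, so that deletion is not limited to stem cells. About 20000 cells per library were sorted from bone marrow by the absence of lineage markers and CD48 and the presence of Sca-1, c-Kit and CD150. The sources used here do not give which part of Dek is floxed. The series design text speaks of duplicates where the labels give 3 libraries a group, and the labels do not say whether libraries came from separate animals, so a p-value here speaks only of differences between libraries, and these may be technical.

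The lists labelled Dek_cKO held 70756, 73173 and 27170 peaks in replicates 1, 2 and 3, and those labelled Dek_fl held 52451, 71555 and 23813. In replicate 3 of both groups the deposited score follows the −log10 p-value, from which another threshold is inferred. Replicate 3 is therefore treated here as a batch of its own that holds both groups. The labels name no batch. The number of reads behind a peak is unknown, so no counting interval can be given. A peak at an end of Dek was called in all 6 libraries, with folds of 5.13, 4.26 and 10.1 in libraries labelled Dek_cKO and of 4.13, 4.39 and 10.8 in those labelled Dek_fl. That peak does not test the deletion. At Tek, the gene whose control DNA the Cre transgene carries, the peak at a gene end had −log10 p-values of 32.9, 20.5 and 8.59 in libraries labelled Dek_cKO and of 260.1, 575.8 and 56.6 in libraries labelled Dek_fl. The folds of that peak were closer, at 7.6, 6.0 and 5.9 in libraries labelled Dek_cKO and 7.9, 8.2 and 8.7 in those labelled Dek_fl. A second Tek peak, inside the gene, was called in none of the 3 libraries labelled Dek_cKO and in all 3 labelled Dek_fl. The heavier signal at the transgene's own control DNA thus stood in the group whose label names no transgene, whether the labels are exchanged was not tested, and every direction between groups below is that of the labels. Of the marker genes, 11 of 18 stem cell surface and receptor genes carried a peak at one of their ends in every library. The same held for 16 of 25 stem cell transcription factors, 6 of 18 granulocyte and monocyte genes and 5 of 14 erythroid genes. It held for 4 of 13 megakaryocyte genes and 3 of 14 endothelial genes, and for 1 of 16 T and NK cell genes. Of 12 B cell genes it held for 0. The highest shares were 20 of 21 AKT, mTOR, NCoR and HDAC genes and 13 of 15 immediate early genes. The share over all genes was not taken, so these counts do not establish the identity of the cells.

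Open regions away from gene ends are commonly enhancers, stretches that bind transcription factors and act on a promoter at a distance. Blood stem cells are known for many such elements around genes such as Gata2, Runx1 and Meis1. Promoters themselves are often more open than enhancers and tend to be rich in G, C and CpG. A gene can also have several promoters, and one that starts a shorter transcript lies inside the annotated gene, far from its outer ends.

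Windows around listed transcription starts inside the strongest or best-placed of the 477 regions show what such sequences looked like. They were taken from RefSeq (GRCm38.p6, the assembly of mm10), are given 5′ to 3′ in the direction of transcription, and cover 250 bases before a coding start or 250 before to 50 after a noncoding one. The first pair lies in regions inside Rpp40 and Egf. In Rpp40 the capitals mark the letters TGTGGT, bound by RUNX factors, and GGGCGG, the GC box bound by SP factors. The Rpp40 summits lay 174 to 219 bp after the start, so the window does not hold them.
Rpp40, chr13:35906348-35906597, strand -: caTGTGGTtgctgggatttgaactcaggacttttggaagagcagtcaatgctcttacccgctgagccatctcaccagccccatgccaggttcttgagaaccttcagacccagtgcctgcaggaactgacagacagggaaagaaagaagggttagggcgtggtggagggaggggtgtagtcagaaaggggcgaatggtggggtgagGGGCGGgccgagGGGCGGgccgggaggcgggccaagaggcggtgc
In Egf the capitals mark 2 stretches in which the letters GCATGCG, the core of the NRF1 motif, overlap on both strands, and the letters CCGGAA, bound by ETS factors.
Egf, chr3:129725087-129725336, strand -: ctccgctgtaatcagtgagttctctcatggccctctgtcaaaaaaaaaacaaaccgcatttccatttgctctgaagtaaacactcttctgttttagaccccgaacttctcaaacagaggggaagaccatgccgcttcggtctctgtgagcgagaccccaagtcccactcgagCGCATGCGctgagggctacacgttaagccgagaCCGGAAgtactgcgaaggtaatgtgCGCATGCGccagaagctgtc
The window of the noncoding gene Gm16897 lies in the region nearest to Cd34, a surface gene of stem and progenitor cells. It held none of the letter patterns searched and has no capitals. The peak summits of this region lay 370 to 574 bp after the start, past the end of the window. The window thus does not show which letters lie at the summits.
Gm16897, chr1:194976910-194977209, strand -: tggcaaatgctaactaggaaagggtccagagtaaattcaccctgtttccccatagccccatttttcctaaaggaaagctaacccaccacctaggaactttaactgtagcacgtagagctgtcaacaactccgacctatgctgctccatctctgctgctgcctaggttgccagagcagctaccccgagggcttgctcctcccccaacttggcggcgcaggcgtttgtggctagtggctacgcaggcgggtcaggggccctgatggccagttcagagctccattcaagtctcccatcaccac
The last pair belongs to the noncoding genes 9330159M07Rik and 9430037G07Rik, beside Trim43c and Trim43a. Capitals mark the runs of 20 and 67 bases that both windows share letter for letter.
9330159M07Rik, chr9:88858752-88859051, strand -: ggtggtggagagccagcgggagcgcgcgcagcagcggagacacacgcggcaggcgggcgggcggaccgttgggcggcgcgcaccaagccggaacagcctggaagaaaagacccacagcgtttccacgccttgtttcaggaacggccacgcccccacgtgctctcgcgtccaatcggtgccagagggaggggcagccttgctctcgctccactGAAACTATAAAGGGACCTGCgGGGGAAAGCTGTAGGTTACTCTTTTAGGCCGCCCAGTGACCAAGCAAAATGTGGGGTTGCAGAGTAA
9430037G07Rik, chr9:88599194-88599493, strand -: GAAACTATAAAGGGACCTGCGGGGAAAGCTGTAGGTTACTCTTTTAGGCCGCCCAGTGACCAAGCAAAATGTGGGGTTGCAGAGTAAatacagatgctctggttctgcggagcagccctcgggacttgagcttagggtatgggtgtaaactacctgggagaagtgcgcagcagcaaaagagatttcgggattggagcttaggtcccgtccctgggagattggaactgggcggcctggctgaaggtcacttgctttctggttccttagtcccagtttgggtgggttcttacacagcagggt
Summits near Trim43a lay at bases 88599588 to 88599646, outside the window of 9430037G07Rik. Near Trim43c they lay at bases 88858981 to 88859000, inside the window of 9330159M07Rik but outside the shared runs. The regions around the last pair lay 258612 bp apart on chromosome 9. Reads from such copies can be placed at either, so their values are uncertain.

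The label of a distal region held for only part of the 477. A listed transcription start lay inside 158 of them (33.1%), against 937 of the 7139 other distal regions (13.1%). It was the start of a protein-coding gene in 118 (24.7%, against 9.08% of the other distal regions) and of a noncoding gene alone in 40 (8.39%, against 4.05%). A further 28 (5.87%, against 4.24%) held an end of a noncoding gene without a listed start. The remaining 291 (61.0%, against 82.6%) held neither: 126 of them lay inside a protein-coding gene and 165 outside any. The start table covers 79.9% of protein-coding genes, so the counts of regions with a start are lower limits. The regions are therefore called by their rule below and not enhancers.

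**Figure D1:**
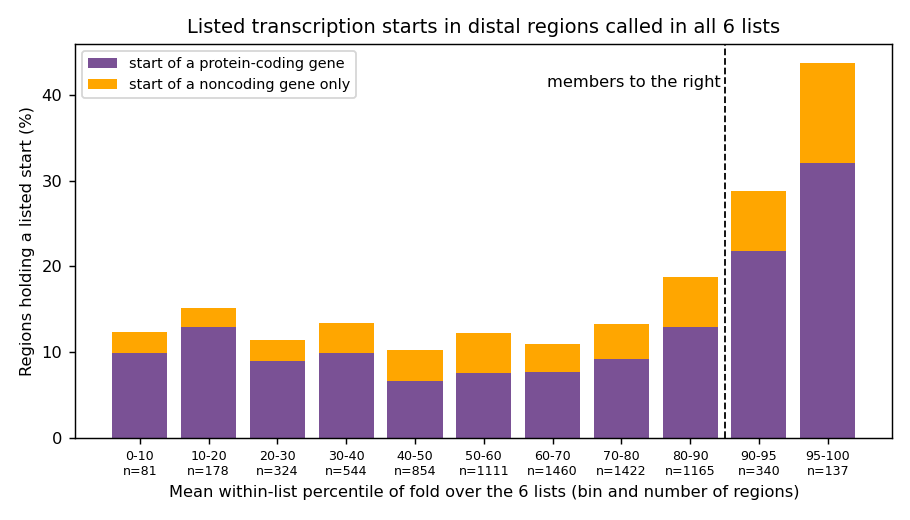
Percent of distal regions called in all 6 lists that held a listed start (vertical axis), by mean percentile of fold (horizontal axis, with the number of regions), split into starts of protein-coding genes and of noncoding genes alone. The 7616 regions are all shown, and the dashed line at percentile 90 has the 477 on its right; the share is 28.8% and 43.8% there and 10.2% to 18.7% to its left.

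The share with a start climbed with strength also within the 477. Of the 340 with a mean percentile from 90 to 95, 28.8% held a start, and of the 137 above, 43.8% did. Below the threshold the share was 18.7% of the 1165 regions from 80 to 90, and between 10.2% and 15.2% in each of the bins under 80. The same order was seen when each list was used alone. Of the distal regions at percentile 90 or more in that list, 18.6%, 18.2% and 25.5% held a start in replicates 1, 2 and 3 labelled Dek_cKO, and 27.9%, 18.4% and 31.8% in those labelled Dek_fl, against 12.2% to 13.5% of the regions under 90. Regions are not replicates and strength chose them, so these shares are a description with no test.

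Most peak summits lay near the listed starts. This closeness was in part set in advance, as each region was picked for holding a start and the nearest start was taken. Over the 158 regions with a start, the median summit lay 5.5 bp before the start, 4.5 bp after it and 39.0 bp after it in replicates 1, 2 and 3 labelled Dek_cKO, and 10.5, 21.5 and 36.5 bp after it in those labelled Dek_fl. Between 79.1% and 84.2% of the summits were within 200 bp of the start in every library. Replicate 3 of both groups had the median summits farthest downstream.

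**Figure D2:**
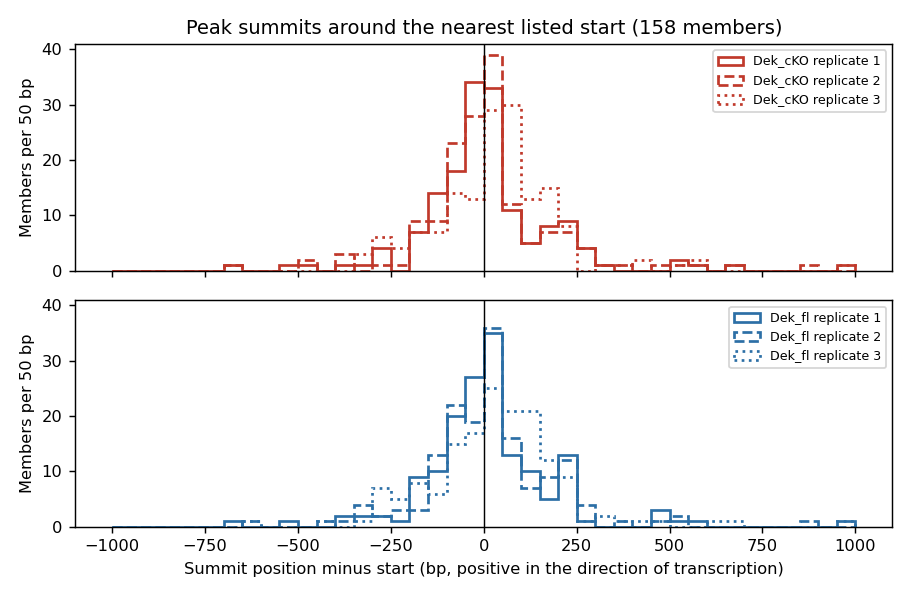
Number of regions per 50 bp (vertical axis) by position of the peak summit minus the nearest listed start (horizontal axis, bp, positive in the direction of transcription), for the 158 regions with a start in the libraries labelled Dek_cKO (upper) and Dek_fl (lower). All 6 libraries peak around the start, with medians from −5.5 to 39.0 bp.

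The start windows inside the 477 regions numbered 199 and differed in base content from start windows in general. They had a median of 59.0% G and C, against 59.3% in the 1176 windows of the other distal regions and 53.0% over all 32619 windows. Their median ratio of observed to expected CpG was 0.725, against 0.644 and 0.387. The ETS letters CCGGAA, searched on both strands like every pattern here, occurred in 36.2% of the windows, against 19.6% in the other distal regions and 15.0% of all windows. The NRF1 core GCATGCG occurred in 8.54%, against 3.74% and 3.59%. The GC box GGGCGG was in 57.3%, against 54.5% and 35.9%, and the YY1 letters ATGGCGG in 6.53%, against 5.19% and 4.08%. GATAA, bound by GATA factors, was in 17.1% of the windows, against 18.6% in the other distal regions and 25.4% of all windows, and the RUNX letters in 16.6%, against 14.6% and 16.6%. The AP-1 letters TGANTCA were in 4.52%, against 7.23% and 7.85%. CCAAT, the NF-Y box, was in 38.7%, against 33.2% and 37.6%, and the E-box CACGTG in 11.1%, against 9.18% and 7.20%. A pattern of letters is not a bound site, and the regions without a start were not searched.

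Noncoding genes that have an end inside the 477 regions were mostly long noncoding RNAs, in 60 regions (12.6%, against 6.92% of the other distal regions). Ends of pseudogenes lay in 7 (1.47%, against 0.700%) and ends of transcribed pseudogenes in 6 (1.26%, against 0.266%). Ends of tRNA genes lay in 5 (1.05%, against 0.756%), ends of small nuclear RNA genes in 5 (1.05%, against 0.364%), and ends of miRNA genes in 2 (0.419%, against 0.210%). Chosen after its values were seen, the miRNA gene Mir210, known for its rise under low oxygen, had an end inside the region at chr7:141221332-141222507 near Rassf7, whose mean percentile was 96.5. Its folds were 9.85, 10.4 and 16.9 in libraries labelled Dek_cKO and 8.66, 8.52 and 15.2 in libraries labelled Dek_fl.

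The strongest of the 477 by mean percentile was a narrow region at chr16:11143907-11144306 inside Zc3h7a, a gene of the CCCH zinc finger family. Its fold over local background was 17.7, 15.7 and 18.3 in libraries labelled Dek_cKO and 12.8, 13.8 and 24.2 in libraries labelled Dek_fl, and its mean percentile was 99.9. The 2 groups overlapped. No listed start lay in it, and its median width over the lists was 378 bp, the narrowest of all 477. No region of the 477 was left out for uncertain read placement. Whether such placement raised the folds of this or other narrow regions was not tested. The copy-like region near Trim43c (chr9:88858570-88859302) came next, with folds of 27.0, 27.0 and 18.4 in libraries labelled Dek_cKO and 14.3, 22.0 and 17.6 in libraries labelled Dek_fl. Replicates 1 and 2 labelled Dek_cKO were the highest there, and the groups overlapped.

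Among the regions with a start, the one inside Rpp40 (chr13:35905486-35906715), which encodes a protein subunit of RNase P, had folds of 11.7, 13.1 and 23.9 in libraries labelled Dek_cKO and 11.8, 10.5 and 22.0 in libraries labelled Dek_fl. Its summit was at the same base, 35906128, in replicates 1 and 2 of both groups. The region inside Egf (chr3:129724524-129725842), the gene of epidermal growth factor, had folds of 12.1, 11.9 and 21.4 in libraries labelled Dek_cKO and 11.2, 9.62 and 20.1 in libraries labelled Dek_fl. In both regions replicate 3 of both groups was high and the groups overlapped.

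The following regions of the 10 strongest held no listed start and no noncoding gene end. The region inside Apool (chrX:112370732-112371245), a mitochondrial membrane protein gene, had folds of 22.2, 20.5 and 16.6 in libraries labelled Dek_cKO and 20.2, 17.6 and 17.5 in libraries labelled Dek_fl. It was the reverse of most, with replicate 3 the lowest of its group. The region inside Efcab12 (chr6:115823411-115824497) had folds of 13.9, 14.8 and 16.1 in libraries labelled Dek_cKO and 11.4, 12.5 and 21.7 in libraries labelled Dek_fl. The groups overlapped in both. The region 4444 bp from Sfpq (chr4:127015123-127016272), a splicing factor gene, had folds of 11.4, 14.9 and 21.5 in libraries labelled Dek_cKO and 8.96, 10.6 and 17.6 in libraries labelled Dek_fl. The region near Gm35315 (chr5:110057237-110058621) had folds of 12.0, 13.7 and 17.3 in libraries labelled Dek_cKO and 10.6, 9.98 and 16.9 in libraries labelled Dek_fl. The groups overlapped in both regions.

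**Figure D3:**
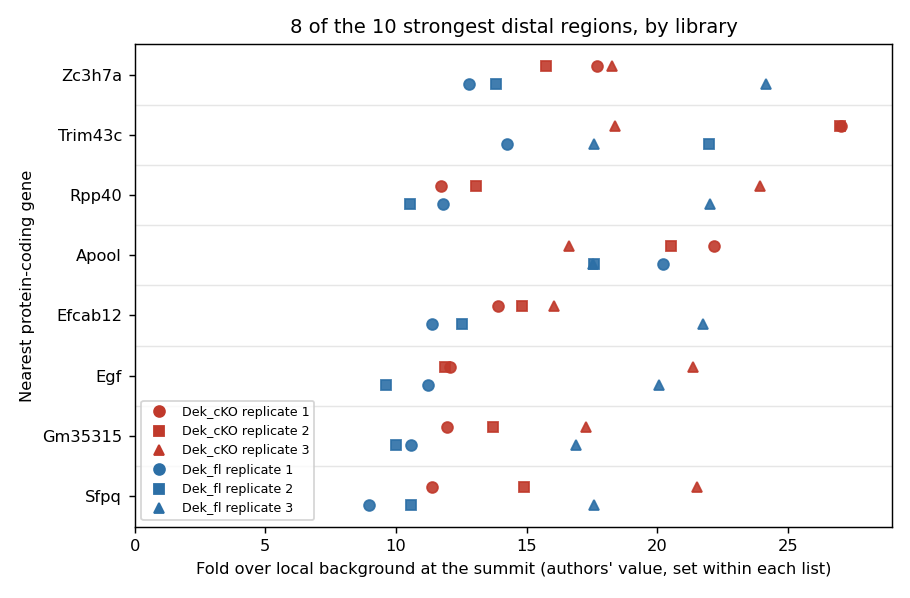
Fold over local background at the summit (horizontal axis, the authors' value, set within each list) of 8 of the 10 regions of highest mean percentile, named by nearest protein-coding gene (vertical axis), 1 point per library. Libraries labelled Dek_cKO are drawn above those labelled Dek_fl, and in no region do the 2 groups separate; replicate 3 (triangles) is the highest of both groups in 6 of the 8.

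Over all 477 regions the fold that chose them had a median of 9.80, 11.0 and 14.3 in replicates 1, 2 and 3 labelled Dek_cKO and of 8.38, 8.74 and 13.0 in those labelled Dek_fl. The medians of the other distal regions were 6.64, 7.31 and 8.39 in libraries labelled Dek_cKO and 5.38, 5.94 and 7.48 in libraries labelled Dek_fl. Fold scales differ between lists, so only ranks within a list are compared below. The share of the 477 at percentile 90 or more in a single list was 86.6%, 93.5% and 65.2% in libraries labelled Dek_cKO and 86.8%, 88.7% and 54.5% in libraries labelled Dek_fl. Replicate 3 was low in both groups. Among the distal regions called in all 6 lists, regions were also chosen by the mean percentile of 5 lists. Of these, 81.1% to 91.5% reached percentile 90 in the left-out list where that was a replicate 1 or 2. Where it was a replicate 3, 47.5% (Dek_cKO) and 36.5% (Dek_fl) did. The left-out list still had to hold a peak, so regions with no peak there could not count as failures.

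At the threshold itself, the regions just inside were near Ebf2 (90.05), Tafa4 (90.05) and E2f8 (90.02), and those just outside near Zfp984 (89.99), Akr7a5 (89.98) and Prcd (89.98), all as mean percentiles. The 477 were 2.42% of the 19683 regions called in all lists. Of the 2702 such regions at percentile 90 or more, 2101 lay at a gene end and 124 lay over 50 kb from one. The share reaching 90 was 21.5% at gene ends and 5.46% over 50 kb away, next to 6.26% among the distal regions.

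The 477 regions were spread over 470 nearest genes. Their median distance from a gene end was 10380 bp, against 12020 bp for the other distal regions, and 26.8% lay within 5 kb, against 22.4%. A gene body held 258 of them (54.1%, against 58.5%). There were 7 genes nearest to 2 of the regions each, and among them, chosen after their values were seen, were Csf2ra, which encodes the alpha chain of the GM-CSF receptor, and Kmt2e, a SET domain gene needed for normal blood stem cells. The 2 regions near Csf2ra had mean percentiles of 95.8 and 92.7, and those near Kmt2e of 95.2 and 93.1. Genes whose symbol marks a zinc finger protein were nearest to 22 of the regions (4.61%, against 1.82%), a grouping also chosen after the values were seen.

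Few of the 477 lay near the genes that define blood cells. Of 166 genes on 10 lists, 3 were nearest to a region (0.629% of the 477), against 151 of the other distal regions (2.12%). The region near Cd34, at chr1:194975911-194977647, had folds of 9.81, 10.3 and 15.9 in libraries labelled Dek_cKO and 8.82, 7.87 and 14.4 in libraries labelled Dek_fl. It held the start of Gm16897, whose window is printed above, and its mean percentile was 95.3. The region 11634 bp from Klf4 (chr4:55514434-55515503), an immediate early transcription factor gene, had folds of 11.3, 13.4 and 13.7 in libraries labelled Dek_cKO and 8.30, 10.7 and 15.9 in libraries labelled Dek_fl. The region near Fcgr3 (chr1:171043805-171045381), an Fc receptor gene of granulocytes and monocytes, held the end of a tRNA gene and had folds of 10.6, 12.2 and 12.6 in libraries labelled Dek_cKO and 9.53, 8.55 and 10.8 in libraries labelled Dek_fl. The groups overlapped in all 3 regions.

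No region of the 477 was nearest to any of the 25 stem cell transcription factor genes. Of the 7139 other distal regions, 37 (0.518%) were nearest to 14 of these genes. At so small a share, the 0 among the 477 is not read as a result about these genes. The strongest of the 37 was inside Meis1, a homeobox gene needed for stem cell maintenance, at a mean percentile of 87.7, followed by one inside Runx1 at 83.5. The median of the 37 was 47.9. The best region of the megakaryocyte list was near Vwf at 85.7, of the erythroid list near Bcl11a at 85.6 and of the endothelial list near Flt1 at 82.7. That of the list of AKT, mTOR, NCoR and HDAC genes was near Pik3r1 at 83.8, of the B cell list near Blnk at 79.7 and of the T and NK cell list near Tcf7 at 66.0. Other known genes with a strong region, chosen after their values were seen, were Ets2, an ETS factor (98.2), Dnmt1, the maintenance DNA methyltransferase, by a start inside the gene (97.3), and Mef2d (96.5).

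The 477 regions were about as wide as the others. Their median width was 1251, 1144 and 606 bp in replicates 1, 2 and 3 labelled Dek_cKO and 1044, 1276 and 625 bp in those labelled Dek_fl. For the other distal regions the medians were 1243, 1149 and 528 bp in libraries labelled Dek_cKO and 977, 1285 and 517 bp in libraries labelled Dek_fl. The ratio of the 477 to the others was thus 1.01, 0.996 and 1.15 in libraries labelled Dek_cKO and 1.07, 0.993 and 1.21 in libraries labelled Dek_fl. Replicate 3 had the narrow peaks and the highest ratio in both groups.

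Width differed with what the region held, and did so in the other distal regions too. The median width was 1205 bp for the 118 regions with a coding start (other distal regions 1301.5 bp) and 1114 bp for the 40 with a noncoding start (1216 bp). It was 1064 bp for the 126 inside a gene (1010 bp) and 991 bp for the 165 outside (983 bp). By these medians, the regions with a start were narrower than the other distal regions with a start. Of the 5 widest, 4 held a coding start, near Trmo (2021 bp), Zfp953 (1880 bp), Pnkd (1807.5 bp) and Angel2 (1800 bp). The widest was one of those near Csf2ra (2122 bp). Its summits lay at base 61267015 or 61267016 in replicates 1 and 2 of both groups. In replicate 3 they lay at 61265631 (Dek_cKO) and 61265644 (Dek_fl), where it covered only 471 and 693 bp. After Zc3h7a, the narrowest were those near Trim43a (386 bp) and Trim43c (408 bp). There were 6 regions under 500 bp (1.26%, against 2.35% of the other distal regions), and 4 of these 6 were among the strongest by percentile, at 98.6 to 99.9. Summits were placed alike: their spread over the 6 lists had a median of 109 bp, against 159 bp for the others, and was at most 200 bp in 86.8%, against 62.5%.

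**Figure D4:**
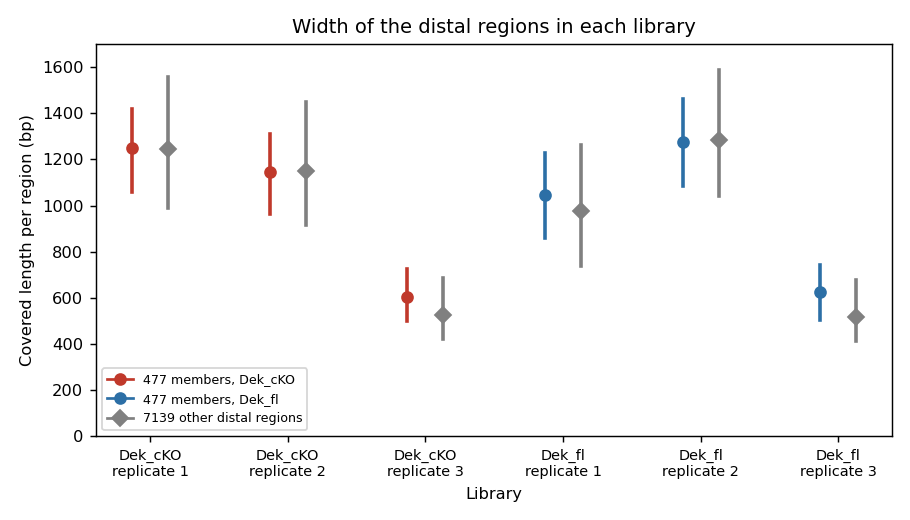
Covered length per region (vertical axis, bp) in each library (horizontal axis): median (points) and middle 50% of regions (lines) of the 477 regions (circles) and of the 7139 other distal regions (diamonds). Libraries labelled Dek_cKO are on the left; replicate 3 of both groups, at 606 and 625 bp, is far below the other 4 libraries, which run from 1044 to 1276 bp.

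The libraries labelled Dek_cKO and Dek_fl did not differ in the overall width of the 477 beyond their spread. The median width averaged 1000 ± 346 bp in libraries labelled Dek_cKO and 982 ± 330 bp in libraries labelled Dek_fl (SD, n = 3 each), a log2 ratio of 0.02. The exact two-sided permutation test gave p = 1.0, and with 20 assignments it cannot go below 0.1. Within replicates 1 and 2 the log2 ratio was 0.05 and in replicate 3 it was −0.04. It was −0.16, −0.10 and 0.36 without Dek_cKO replicates 1, 2 and 3, and 0.10, 0.25 and −0.29 without Dek_fl replicates 1, 2 and 3.

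No region of the 477 was called as changed in rank or width at the threshold. Ranks of the fold among the 19683 regions were turned into normal scores, so that a score of 0 is the middle of a list, and the difference is the mean score of libraries labelled Dek_cKO minus that of libraries labelled Dek_fl. By limma with Benjamini-Hochberg adjustment over all 19683, at an adjusted p under 0.05, 0 of the 477 were higher and 0 lower, and the share called among all regions was 0% each way. At an unadjusted p under 0.05, limma gave 2 higher and 1 lower, where the share over all regions was 0.345% higher and 0.0965% lower. This model held no term for the batch of replicate 3, and these shares were below those with the block or batch term given below. The absence of a call thus does not show the absence of a difference. For width, limma called 0 wider and 0 narrower (0% of all regions), and at an unadjusted p under 0.05 it gave 1 wider and 0 narrower, where the share over all regions was 0.61% and 0.259%. The median standard error of a rank difference was 0.37, and the differences ran from −0.89 to 1.14 with a median of 0.01, against −0.02 over all regions.

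The groups did not overlap in 19 of the 477. All libraries labelled Dek_cKO were above all labelled Dek_fl in 13 (2.73%, where the share over all regions was 2.1%) and below in 6 (1.26%, where it was 2.27%). With the replicate number as a block, limma called 0 of the 477 higher (0.00508% of all regions) and 0 lower (0%), and gave 15 higher and 8 lower at an unadjusted p under 0.05, where the share over all regions was 2.97% and 1.47%. With a term for the inferred batch of replicate 3 it called 0 either way and gave 14 higher and 8 lower, where the share was 2.77% and 1.53%.

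The region with the smallest p among those higher in Dek_cKO lay 16514 bp from Scarb1, the receptor of high-density lipoprotein, at chr5:125357608-125358943. Its rank score was 2.10, 1.95 and 1.34 in libraries labelled Dek_cKO and 0.48, 1.12 and 0.49 in libraries labelled Dek_fl. All of the Dek_cKO scores stood above all of the Dek_fl scores. The difference was 1.10 with a standard error of 0.34 and an adjusted p of 1.0 by limma. The region inside Abcg3, an ABC transporter gene, also kept its groups apart, at 1.72, 1.66 and 2.22 in libraries labelled Dek_cKO and 1.06, 1.27 and 1.22 in libraries labelled Dek_fl. Its difference was 0.68 with a standard error of 0.30 (limma, adjusted p = 1.0). In the regions near Pfkfb3, a regulator of glycolysis, Tlr5, the flagellin receptor, and Gja5, a connexin gene, the differences were 0.97, 0.73 and 1.14, and their groups overlapped. Single libraries moved these values. Pfkfb3 was at 0.51 without Dek_cKO replicate 3 and 0.59 without Dek_fl replicate 1, and Tlr5 at 0.39 without Dek_cKO replicate 1. Gja5 was at 0.76 without Dek_cKO replicate 1, 0.58 without Dek_fl replicate 1 and 1.75 without Dek_fl replicate 2. Near Cacng6 the difference was 0.53, with no overlap. Ranked by −log10 p in place of fold, the differences were smaller, at 0.57 for Scarb1, 0.28 for Abcg3, 0.50 for Pfkfb3, 0.30 for Tlr5, 0.49 for Gja5 and 0.28 for Cacng6.

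The region with the smallest p among those lower in Dek_cKO lay 34411 bp from Stk26, a protein kinase gene, at chrX:50804869-50806763. Its rank score was 0.66, 0.62 and 0.83 in libraries labelled Dek_cKO and 1.48, 1.51 and 1.44 in libraries labelled Dek_fl. The Dek_cKO scores were all below the Dek_fl scores. The difference was −0.77 with a standard error of 0.28 and an adjusted p of 1.0 by limma. Near Anp32e, which encodes a histone chaperone, and 4932438A13Rik the groups also stayed apart, with differences of −0.58 and −0.56. Near Btbd10, 4930447C04Rik and Dhcr7, the enzyme of the last step of cholesterol synthesis, the groups overlapped, with differences of −0.63, −0.78 and −0.89. Without Dek_fl replicate 3 the difference was −0.49 for 4930447C04Rik and −0.36 for Dhcr7. Ranked by −log10 p, the differences were −0.33 for Stk26, −0.56 for Anp32e, −0.27 for 4932438A13Rik, −0.32 for Btbd10, −0.61 for 4930447C04Rik and −0.53 for Dhcr7.

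**Figure D5:**
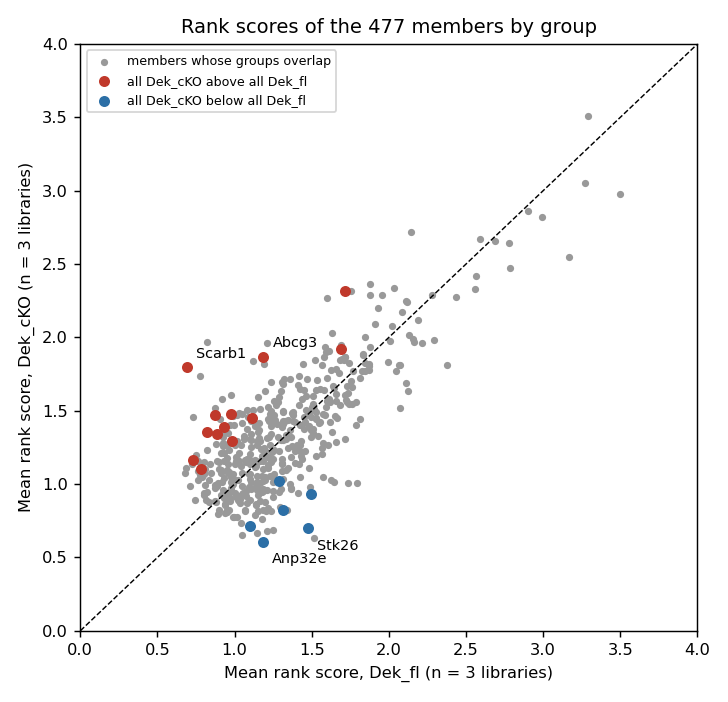
Mean rank score of each of the 477 regions in libraries labelled Dek_cKO (vertical axis) and Dek_fl (horizontal axis), with the line of equal scores dashed and n = 3 libraries each. The 13 regions whose Dek_cKO scores were all above the Dek_fl scores and the 6 below are coloured, and Scarb1, Abcg3, Stk26 and Anp32e are labelled.

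For width, the smallest p of the wider regions was near Cldn1, a tight junction gene. It covered 1058, 919 and 498 bp in libraries labelled Dek_cKO and 365, 720 and 425 bp in libraries labelled Dek_fl. The Dek_cKO library was wider at each replicate number, but the groups overlapped. The difference in centred log2 width was 0.66 with a standard error of 0.27 (limma, adjusted p = 1.0), and without Dek_fl replicate 1 the difference was 0.37. The next wider were the regions near Gatad2a, which encodes a subunit of the NuRD complex, and Gm35751, at 0.35 and 0.27. Gatad2a was at 0.23 without Dek_cKO replicate 1 and 0.54 without Dek_cKO replicate 3, and Gm35751 at 0.18 without Dek_fl replicate 3. The narrower ones were near Gm14137 and Wdtc1, at −0.33 and −0.25, and Gm14137 was at −0.19 without Dek_fl replicate 3. Over the 477 the median width difference was −0.02, against −0.003 over all regions, and it was positive in 41.1%, against 49.0%.

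By what the regions held, the median rank difference was −0.02 for the 118 regions with a coding start, −0.001 for the 40 with a noncoding start, 0.01 for the 126 inside a gene and 0.04 for the 165 outside. The median standard error of 0.37 is that of a single region and does not measure the spread of these medians. The median rank score over all regions kept had an SD of 0.034 between libraries of the same label, pooled over both groups. It is not the SD of a difference between groups. No such SD was taken by what the regions held, and these medians were not tested.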

How the data were processed

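Nuclei of sorted stem cells were profiled by ATAC-seq in 6 libraries. The submitters' processing notes name Bowtie2, Picard, MACS2 and the build mm10. Versions, settings and any Tn5 shift are not given in those notes. The authors deposited 1 narrowPeak list per library, not called on pooled samples, with a score, a fold enrichment over local background (the ratio), a −log10 p-value and a −log10 q-value per peak. The deposited score, fold and −log10 values are the authors' own, were used only within a list, and carry no read depth. In replicate 3 of both groups the deposited score follows the −log10 p-value, from which another threshold is inferred.

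Peaks were merged, placed against the RefSeq gene table of GRCm38.p6 (no strand or exons) and ranked as described in the report. Listed starts came from RefSeq windows, 32619 in all for 26794 genes. No genome was used, so the planned scan of sequence around summits was not run and letters were searched in start windows only. Normal scores of ranks, and log2 widths centred on each library's median, were tested with limma 3.58.1 in R 4.3.3, which was tested on simulated data. Python 3.11.15, pandas 2.3.3 and scipy 1.17.1 did the rest.

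Regions are named by nearest protein-coding gene: the 10 of highest mean percentile, the smallest p per direction (5 for rank, 3 for width), the 5 widest and 3 narrowest, those near listed genes, those at the threshold and those whose groups do not overlap (3 per direction); some regions under this rule are not reported here. The regions, the lists and this rule were chosen with earlier results of these data known. The alternatives were other thresholds, merging, percentile bases, list lengths, a replicate block, a batch term, ranks by −log10 p and leaving out each library. Same-numbered libraries deviated together, with correlations of 0.27, 0.52 and 0.74 for replicates 1, 2 and 3. Dek_cKO replicate 1 correlated more with Dek_fl replicate 2, at 0.57, and Dek_cKO replicate 2 correlated with Dek_fl replicate 1 at 0.31. This check therefore does not settle whether the numbers pair replicates 1 and 2, and the block is only an alternative.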

Additional observations from a re-analysis of the deposited data

How the results depend on the processing

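The count of 477 regions was 537 with distance measured from the summit and 477 with a shared length of at least 50 bp, but 156 with percentiles over the regions called in all lists, 137 at percentile 95, 255 at −log10 q of at least 10 and 172 with equal-length lists. The percent with a listed start was 41.7, 43.8, 38.4 and 41.9 in those last 4 settings, and the percent in gene bodies 58.7 with equal-length lists. The causes were not tested.

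Without each library in turn, the number ran from 435 to 698 (605 without Dek_cKO replicate 3 and 698 without Dek_fl replicate 3), the percent with a start from 28.4 to 35.2 and the percent in gene bodies from 52.2 to 55.2. The median rank difference ran from −0.0107 to 0.0755, and the log2 width ratio from −0.295 to 0.365. In replicate 3 alone these were 0.0673 and −0.0445, and the log2 width ratio was −0.0525 when widths were divided by those of the other distal regions.

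Rank and width were tested by limma with the −log10 q limit, the 50 bp merge, equal-length lists and each library left out. The block and the batch term were also used, and rank was tested by −log10 p. In each setting 0 of the regions kept were called as changed. Rank and width were not tested again for the other percentile base, percentile 95 or the summit distance. With the replicate block the smallest limma adjusted p was 0.37, with 15 higher and 8 lower at an unadjusted p under 0.05, where the share over all regions was 2.97% and 1.47%. With the batch term the smallest was 0.98. The block changed no call of a named region, and the named differences kept their sign in each alternative run, with the moves in size given in the report. Read depth is unknown.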
